A study of Mus musculus with 12 samples.

Results

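Transcripts of 5 genes that build glycogen or bind to it were followed in skeletal muscle of AMPK γ3 mutant (R225Q) transgenic mice and of wild-type littermates. The genes were Ugp2, Gbe1, Gys1, Stbd1 and Ppp1r3c, taken by name, and every probe set that the platform annotation pairs with exactly 1 of these symbols was kept. This gave 11 probe sets of 5 genes out of 22626 tested probe sets and 12393 named genes: 5 for Ugp2, 2 each for Gys1 and Ppp1r3c, and 1 each for Gbe1 and Stbd1. Both groups were male C57BL/6 mice of the fifth generation, aged 17 to 18 weeks, fasted overnight and sampled in the white portion of the gastrocnemius, with 6 transgenic and 6 wild-type mice and 1 array per mouse. The transgenic mice carry a transgene for the mutant γ3 subunit, which the wild-type littermates lack. The promoter and the number of founder lines behind the transgene are not given in the labels used here. Transgenic arrays are numbered 1 to 6 and wild-type arrays 7 to 12, as in the labels.

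Glycogen is the glucose store of muscle fibres. UDP-glucose pyrophosphorylase, encoded by Ugp2, joins glucose 1-phosphate to UTP and so makes UDP-glucose, the activated sugar that glycogen synthase adds to the growing chain. Gys1 encodes the synthase of muscle, and Gbe1 the branching enzyme that moves short stretches of chain to form side branches. Ppp1r3c encodes a targeting subunit that holds protein phosphatase 1 on glycogen, where the phosphatase removes inhibitory phosphates from the synthase. Stbd1 encodes a membrane-anchored protein with a starch-binding domain that links glycogen to membranes and to autophagy. AMPK is an energy-sensing kinase whose β subunits bind glycogen and whose γ3 subunit is found mainly in fast muscle fibres.

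RefSeq promoter sequences (GRCm38.p6, 250 bases before to 50 bases after a transcript start) matched 5 of the 5 genes with 6 entries, 2 of them for Ugp2. Those of Ugp2 are shown because it alone had probe sets past the test, and that of Ppp1r3c because its level varied most within genotypes. Capitals mark ACGTG and GCGTG on either strand, the cores of the element bound by hypoxia-inducible factors, which in human cells induce several genes of glycogen synthesis. ACGTG also lies inside the E-box CACGTG.
Ugp2, upstream start, chr11:21371218-21371517, minus strand: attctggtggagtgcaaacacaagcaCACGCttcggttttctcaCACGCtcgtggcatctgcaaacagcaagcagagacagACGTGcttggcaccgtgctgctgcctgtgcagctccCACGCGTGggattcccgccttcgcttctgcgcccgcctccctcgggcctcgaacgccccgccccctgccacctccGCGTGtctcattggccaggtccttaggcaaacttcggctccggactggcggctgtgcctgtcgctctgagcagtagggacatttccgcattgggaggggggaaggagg
Ugp2, downstream start, chr11:21370580-21370879, minus strand: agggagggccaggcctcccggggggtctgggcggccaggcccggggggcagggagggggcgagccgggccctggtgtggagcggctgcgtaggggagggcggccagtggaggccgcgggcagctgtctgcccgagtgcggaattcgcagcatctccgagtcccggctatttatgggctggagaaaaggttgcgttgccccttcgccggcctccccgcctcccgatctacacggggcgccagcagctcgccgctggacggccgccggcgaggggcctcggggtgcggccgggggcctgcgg
Ppp1r3c, chr19:36736555-36736854, minus strand: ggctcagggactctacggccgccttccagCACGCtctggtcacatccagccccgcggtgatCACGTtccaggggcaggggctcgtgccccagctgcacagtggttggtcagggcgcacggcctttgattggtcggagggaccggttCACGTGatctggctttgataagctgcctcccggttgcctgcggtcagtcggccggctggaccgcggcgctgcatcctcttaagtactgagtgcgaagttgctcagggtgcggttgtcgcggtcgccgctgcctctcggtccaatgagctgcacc
The upstream Ugp2 promoter held 6 matches, 1 of ACGTG and 5 of GCGTG, 2 of which overlap on opposite strands, and the downstream one held 0. The Ppp1r3c promoter held 4 matches, 3 of ACGTG and 1 of GCGTG, with 1 CACGTG that accounts for 2 of the ACGTG matches. Stbd1 had 1 match of GCGTG, and Gbe1 and Gys1 had 0. Of 32851 RefSeq promoters of the same length, 43.8% held at least 1 of the 2 cores and 3.86% held 4 or more. The upstream Ugp2 window was 63.3% and the Ppp1r3c window 65.3% G and C, against a median of 52.7% over all promoters. The GC box GGGCGG was found 3 times in the Gys1 window and 4 times in that of Stbd1, and is present in 35.7% of promoters. CCAAT was found 4 times in the Gys1 window and is present in 37.4%. A match describes letters in the window and not binding.

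The values were probe set intensities, already processed with RMA by the submitters and converted here to log2 units. Array medians lay between 97.8 and 103 on the linear scale, and correlations between arrays between 0.985 and 0.997. The tissue label was checked against 9 fast fibre markers, which all lay above the median probe set, with mean levels from 12.18 to 14.00 log2 units. The 8 slow fibre markers lay above it too, so this position alone does not tell fibre types apart. Their mean levels were lower, from 6.664 to 9.31 log2 units. Both hybridization days were balanced, with 3 transgenic and 3 wild-type arrays on day 1 and again on day 2. One chip lot supplied 10 arrays and a smaller lot the other 2, transgenic 1 and wild-type 7, which stood apart from the rest, with mean correlations of 0.990 and 0.989 against 0.993 or more. Their signal difference between the 3′ and 5′ ends of the Gapdh control was 0.185 and 0.184 log2 units, against -0.09 to -0.0017 on the other arrays. Both were hybridized on day 1. Member fold changes over all arrays that rest on these 2 arrays are therefore given with and without them, and day 1 values only with them.

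All 11 probe sets had a positive log2 fold change in transgenic over wild-type muscle, with a median of 0.30, against a median of -0.0024 and a positive share of 48.6% over all tested probe sets. The genes were chosen with earlier results of these data known, so this count describes them and tests nothing. Of the 11 probe sets, 5 measure the single gene Ugp2 and are not independent of each other. Over the brightest probe set of each of the 5 genes the median was 0.26. In limma with Benjamini-Hochberg adjustment over all probe sets, 2 of the 11 passed as higher, both of Ugp2, where the share over all probe sets was 0.0442%. None passed as lower, where the share over all was 0.0265%. At an unadjusted p under 0.05 in limma, 8 member probe sets were higher, among them all 5 of Ugp2, and 0 were lower. The shares over all at that level were 2.2% and 2.43%. The transgenic arrays lay wholly above the wild-type arrays in 3 of the 11, again all of Ugp2, where the share over all was 0.243%. In whole muscle, fewer cells of a type and less RNA per cell cannot be told apart.

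**Figure D1:**
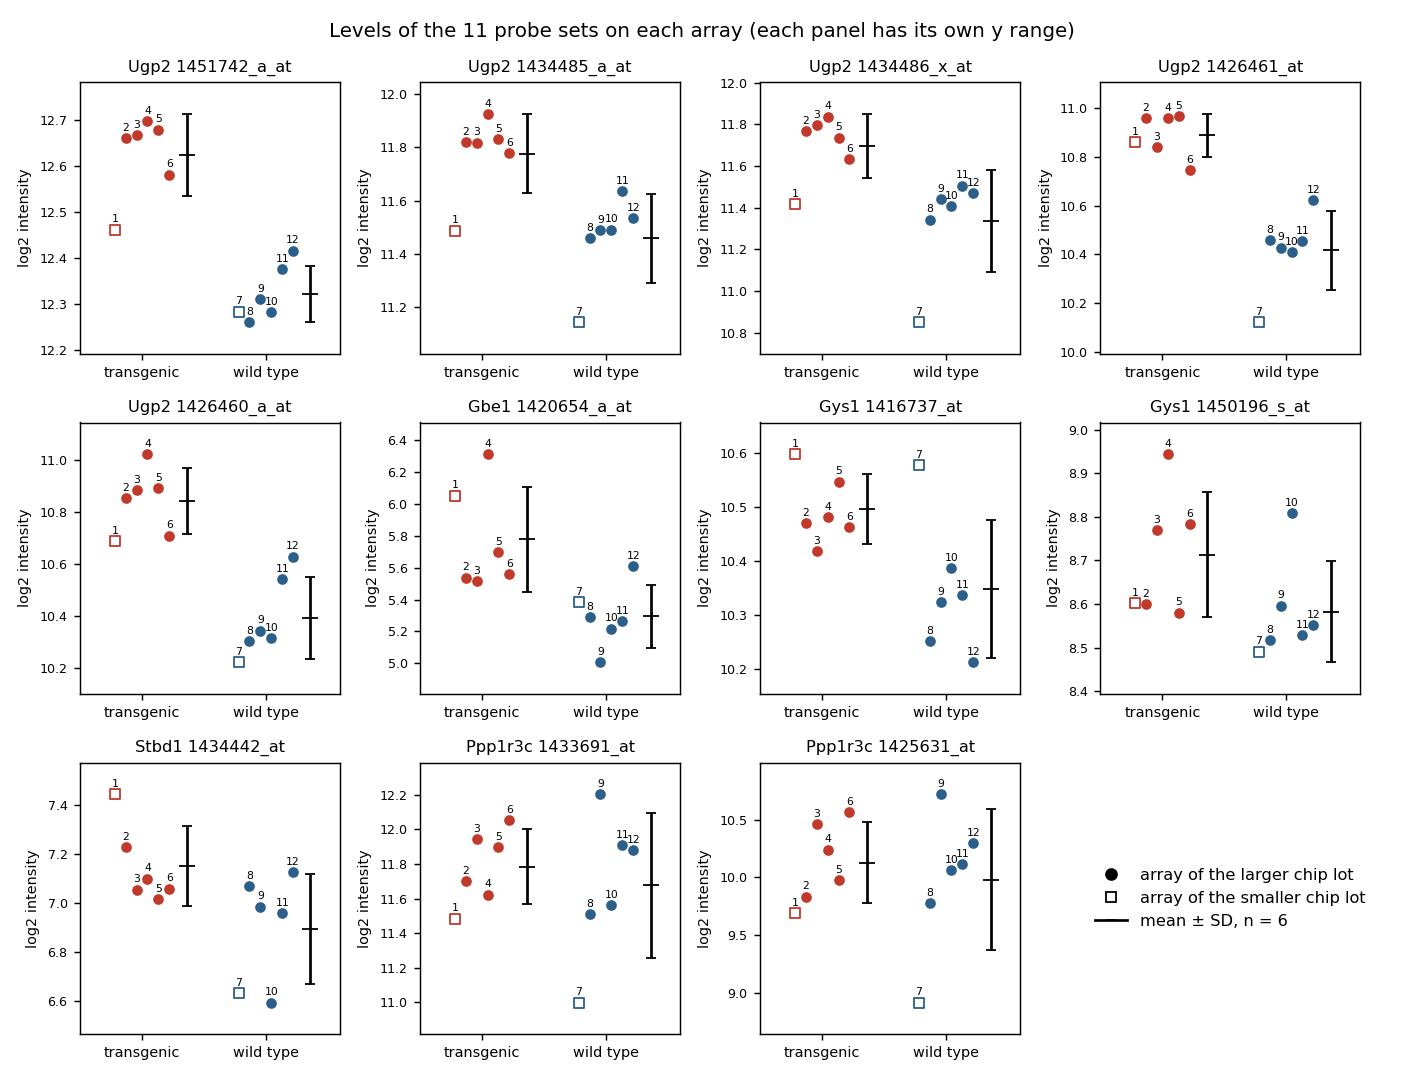
Log2 intensity of the 11 probe sets on each array, in a panel each with its own y range, transgenic left of wild type; numbers are replicates, squares the 2 arrays of the smaller chip lot, and bars the mean ± SD of 6 arrays. The groups are apart in Ugp2 1451742_a_at, 1426461_at and 1426460_a_at and overlap in the other 8 panels.

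Ugp2 was higher in transgenic muscle on each of its probe sets, and it was the only one of the 5 genes with a probe set past the test. On 1426461_at the level ran from 10.74 through a median of 10.91 to 10.97 log2 units in transgenic mice, and from 10.12 through 10.44 to 10.62 in wild-type mice. The lowest transgenic array, replicate 6, was thus above the highest wild-type array, replicate 12. The means were 10.89 ± 0.09 and 10.42 ± 0.16 log2 units (SD, n = 6 each). Transgenic muscle was thus higher by 0.47 ± 0.07 log2 units (SE; adjusted p = 0.0245 in limma), or 1.39-fold with a 95% interval of 1.25 to 1.54.

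The second probe set past the threshold, 1426460_a_at, ran from 10.69 through a median of 10.87 to 11.02 log2 units in transgenic mice and from 10.22 through 10.33 to 10.63 in wild-type mice. The gap between the groups was narrow here: transgenic replicate 1 at 10.69 stood just above wild-type replicate 12 at 10.63. The log2 fold change was 0.45 ± 0.08 (limma adjusted p = 0.0409). The brightest probe set, 1451742_a_at, was at 12.63 ± 0.09 in transgenic and 12.32 ± 0.06 log2 units in wild-type mice (SD, n = 6 each). Its values ran from 12.46 through a median of 12.66 to 12.70 in transgenic mice and from 12.26 through 12.30 to 12.42 in wild-type mice, without overlap. Its difference of 0.30 ± 0.05 (1.23-fold, 95% interval 1.14 to 1.34) had a limma adjusted p of 0.0511 and fell just short of the threshold. In each of these 3 probe sets the exact permutation p of the difference was 0.00216, two-sided and unadjusted, the smallest that regrouping 6 and 6 arrays can give. Groups that do not overlap always give this value, so it restates their separation and is no further test.

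The other probe sets of Ugp2, 1434485_a_at and 1434486_x_at, differed by 0.32 ± 0.08 and 0.36 ± 0.10 and did not pass (limma adjusted p = 0.435 and 0.495). On 1434485_a_at transgenic levels ran from 11.49 through a median of 11.82 to 11.92 log2 units and wild-type levels from 11.14 through 11.49 to 11.63. In both probe sets 5 of 6 transgenic arrays were above every wild-type array, and the exception was transgenic replicate 1 of the smaller chip lot. The suffix x marks a set with probes that can also bind other transcripts, and the suffix a one whose probes are shared by several transcripts of 1 gene.

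Leaving out the 2 arrays of the smaller chip lot brought all 5 Ugp2 probe sets past the threshold, with log2 fold changes of 0.31 to 0.45 and limma adjusted p-values from 0.0149 to 0.0457. In that setting 0.0619% of all probe sets passed as higher. With hybridization day as a block 3 Ugp2 probe sets passed, where the share over all probe sets as higher was 0.053%. With hybridization run as a block none did (limma adjusted p = 0.0872 for 1426461_at, and 4 probe sets of the whole table as higher), although the differences were 0.31 to 0.48. The 4 runs of 3 arrays were unbalanced, with 2 transgenic arrays in runs 2 and 3 and 2 wild-type arrays in runs 1 and 4. On leaving out any 1 array, 1426461_at stayed between 0.41 and 0.51 and passed in 4 of 12 cases, with limma adjusted p-values from 0.0105 to 0.084. The probe set 1426460_a_at stayed between 0.41 and 0.50 and passed in 2 of 12 cases. Both calls were lost without transgenic replicate 2, 3, 4 or 5 or wild-type replicate 8, 9, 10 or 11, and the call of 1426460_a_at also without transgenic replicate 6 or wild-type replicate 7.

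**Figure D2:**
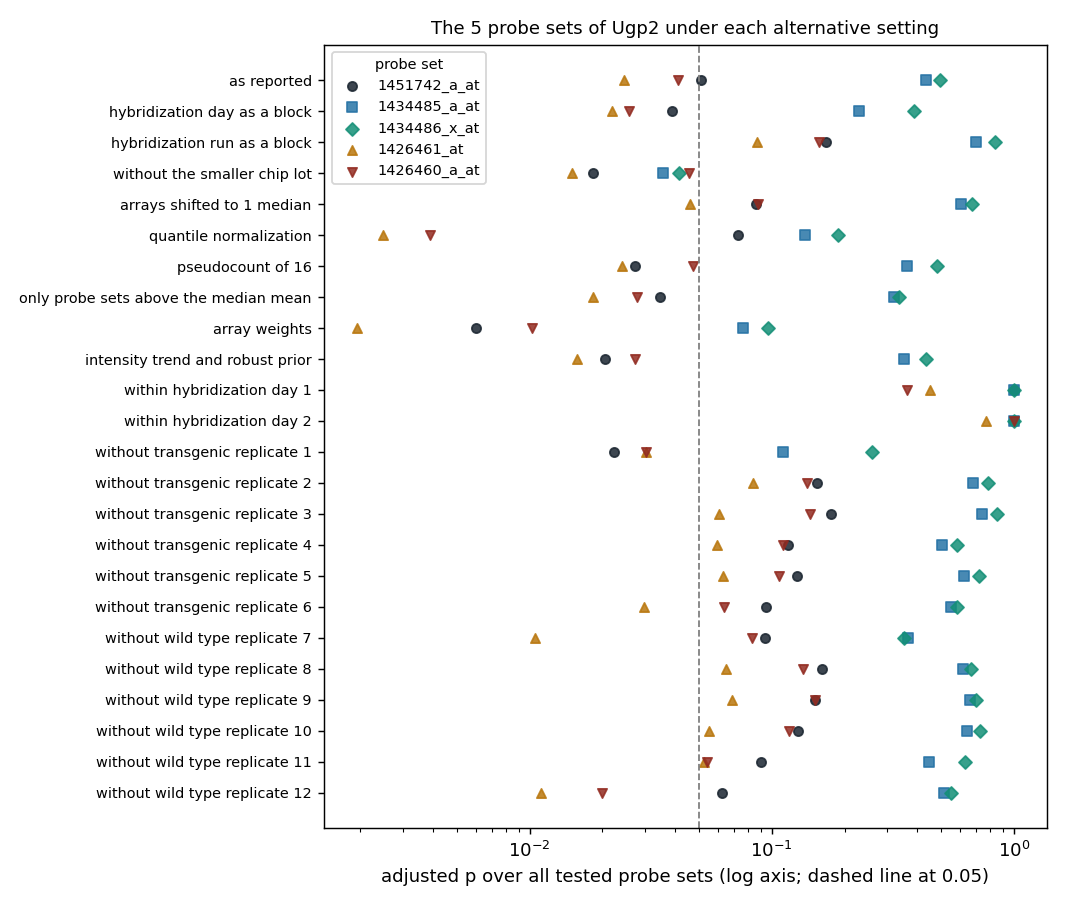
Adjusted p (log axis, dashed line at 0.05) of each Ugp2 probe set in limma under each setting named on the left. All 5 are left of the line without the smaller chip lot, and none is with run as a block or within 1 day.

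Within days, with 3 arrays of each genotype, Ugp2 1426461_at differed by 0.55 ± 0.11 on day 1 and by 0.39 ± 0.09 on day 2 (SE). The brightest probe set differed by 0.31 ± 0.09 on day 1 and by 0.30 ± 0.07 on day 2. Day 1 includes both arrays of the smaller chip lot, so differences between days cannot be told apart from that lot. No probe set of Ugp2 passed within a single day (limma adjusted p = 0.364 or more), where 1 probe set of the whole table passed as higher on each day. The difference between days was itself tested for all 11 members: 0 passed (limma interaction adjusted p = 0.999 each) and 0 had an unadjusted p under 0.05, against 3.04% of all probe sets. All 11 had a positive log2 fold change on both days. For the 3 without overlap this follows from the separation of the groups.

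**Figure D3:**
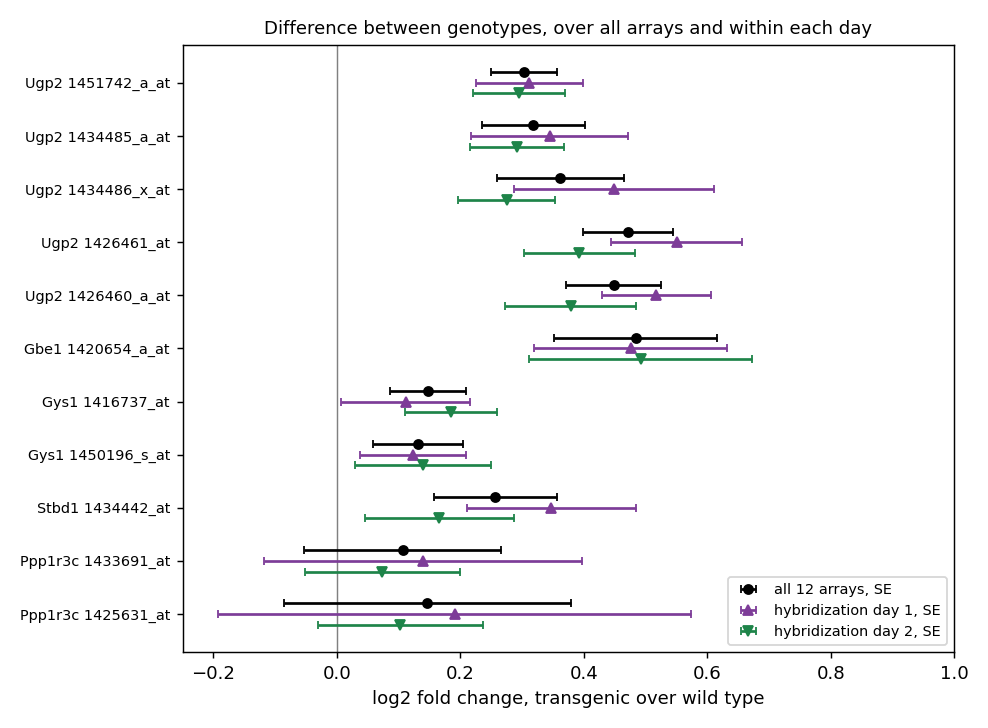
Log2 fold change of transgenic over wild type for the 11 probe sets, over all 12 arrays (circles) and within hybridization day 1 and day 2 (triangles), bars showing the SE. Every point lies right of 0, and only those of Ppp1r3c have bars that cross 0.

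Gbe1, the branching enzyme, had a log2 fold change close to that of Ugp2 1426461_at, and a spread within genotypes that only 2.49% of all probe sets exceeded. Its single probe set, 1420654_a_at, ran from 5.52 through a median of 5.63 to 6.31 log2 units in transgenic mice, against 5.01 through 5.28 to 5.61 in wild-type mice. Transgenic replicates 4, at 6.31, and 1, at 6.05, were far above the other transgenic arrays, which lay between 5.52 and 5.70 and overlapped with wild-type replicate 12 at 5.61. The means were 5.78 ± 0.33 and 5.29 ± 0.20 log2 units (SD, n = 6 each). They differed by 0.48 ± 0.13 (SE; 1.40-fold, 95% interval 1.15 to 1.70), which did not pass (limma adjusted p = 0.467, exact permutation p = 0.00866, two-sided). Without transgenic replicate 4 the difference was 0.38, and without wild-type replicate 12 it was 0.55. Without the smaller chip lot, which holds transgenic replicate 1, it was 0.45 ± 0.14 (limma adjusted p = 0.433). With all arrays kept, the difference was 0.48 ± 0.16 on day 1 and 0.49 ± 0.18 on day 2. With a pseudocount of 16 added to the intensities it fell to 0.36 ± 0.11, while that of Ugp2 1426461_at was 0.47 ± 0.07. The closeness of the 2 values thus depends on how dim signals are converted. The probe set was dim: it was the only member below the median probe set, which lay at 6.66 log2 units, and its distance from background is not known from these files.

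Gys1, the muscle glycogen synthase, differed by little. On 1416737_at levels ran from 10.42 through a median of 10.48 to 10.60 log2 units in transgenic mice and from 10.21 through 10.33 to 10.58 in wild-type mice. Of the wild-type arrays 5 of 6 were below every transgenic array, and the sixth was wild-type replicate 7 of the smaller lot. The difference was 0.15 ± 0.06 (SE; 1.11-fold, 95% interval 1.01 to 1.21; limma adjusted p = 0.911). Without wild-type replicate 7 it was 0.19 and without the smaller lot 0.17 ± 0.05 (limma adjusted p = 0.354 and 0.377). The second probe set, 1450196_s_at, ran from 8.58 through 8.69 to 8.94 in transgenic mice and from 8.49 through 8.54 to 8.81 in wild-type mice, with a difference of 0.13 ± 0.07 (limma adjusted p = 0.999). The suffix s marks probes shared by transcripts of more than 1 gene. The 2 probe sets put different mice high: transgenic replicate 4 and wild-type replicate 10 were the highest of their genotype on 1450196_s_at, and replicates 1 and 7 on 1416737_at.

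Stbd1, the glycogen-binding membrane protein, ran from 7.02 through a median of 7.08 to 7.45 log2 units in transgenic mice and from 6.59 through 6.97 to 7.13 in wild-type mice on its single probe set, 1434442_at. Transgenic replicates 1, at 7.45, and 2, at 7.23, were above all wild-type arrays, and wild-type replicates 7, at 6.63, and 10, at 6.59, were well below the rest. The difference was 0.26 ± 0.10 (SE; 1.19-fold, 95% interval 1.03 to 1.38) and did not pass (limma adjusted p = 0.834). It was 0.35 ± 0.14 on day 1 and 0.17 ± 0.12 on day 2. It was 0.15 ± 0.09 without the smaller chip lot, whose arrays hold the highest transgenic value and the second lowest wild-type value.

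Ppp1r3c, the targeting subunit of protein phosphatase 1, did not separate the genotypes and, with all arrays kept, varied more within genotypes than nearly all probe sets. On its brighter probe set, 1433691_at, levels ran from 11.48 through a median of 11.80 to 12.05 log2 units in transgenic mice and from 10.998 through 11.72 to 12.21 in wild-type mice. Both the lowest and the highest array were wild type, replicate 7 at 10.998 and replicate 9 at 12.21. The difference was 0.11 ± 0.16 (SE, limma adjusted p = 0.999). Its 95% interval, from -0.23 to 0.445, takes in both no change and a change as large as that of the brightest Ugp2 probe set. The interval ends just below the changes of the 2 Ugp2 probe sets that passed, 0.448 and 0.472. On 1425631_at the difference was 0.15 ± 0.23, with a 95% interval of -0.35 to 0.64 that takes in those changes too. Here wild-type replicate 7 at 8.92 and wild-type replicate 9 at 10.72 were again the extremes. Both differences turned negative without wild-type replicate 7, at -0.03 and -0.07, and were 0.03 ± 0.12 and 0.02 ± 0.16 without the smaller lot. The SD within genotypes, pooled over both, was 0.33 and 0.50 log2 units, which 0.99% and 0.168% of all probe sets exceeded. Both include the smaller lot: wild-type replicate 7 deviated from its genotype mean by -0.68 and -1.06, and transgenic replicate 1 by -0.30 and -0.43. No SD without that lot is given. With 1 array per mouse, differences between mice and between arrays cannot be told apart. On the brighter probe set the transgenic arrays had an SD of 0.22 and the wild-type arrays one of 0.42 (n = 6 each), replicates 7 and 9 included.

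**Figure D4:**
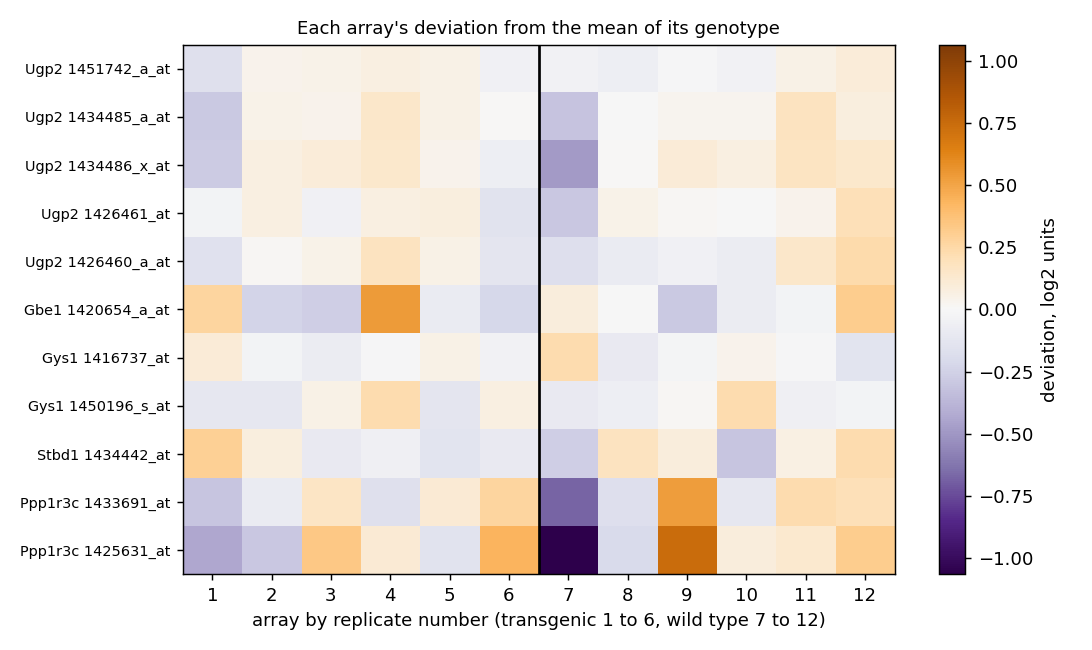
Deviation of each array from the mean of its own genotype, in log2 units by colour, for the 11 probe sets (down) and 12 arrays (across, transgenic 1 to 6 left of the line, wild type 7 to 12 right). Wild-type replicate 7 is low in Ppp1r3c and in 4 of the 5 Ugp2 probe sets by 0.17 or more, and high in Gys1 1416737_at.

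Deviations from the genotype mean show how the transcripts varied among arrays of like genotype. Over 12 arrays the 5 probe sets of Ugp2 varied together, with Pearson r from 0.51 to 0.96 over 10 pairs, and from 0.39 to 0.92 without the 2 arrays farthest from the median. The 2 of Ppp1r3c had an r of 0.92, or 0.76 without the 2 farthest arrays. The 2 of Gys1 had an r of -0.20, which turned to 0.18 without the 2 farthest. Between genes, using the brightest probe set of each, 5 of 10 pairs were positive, with a median r of -0.04 and a range of -0.67 to 0.40. The lowest was Gys1 with Ppp1r3c (r = -0.67, Spearman's rho = -0.45). Without the 2 arrays farthest from the median of Gys1, which were those of the smaller chip lot, its r was -0.08. The sign of r was thus mixed between genes, while it was positive for every pair of Ugp2 probe sets. These values describe 12 arrays that share 2 chip lots and 2 days, and no test is attached to them.

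For each gene the most similar patterns over the same deviations were named by rule. Pak2 (r = 0.94), H2-Ke6 (0.89) and Slc27a1 (0.89), a fatty acid transporter, were most like Ugp2. The genes most like Gbe1 were Golph3 (r = 0.92), Usp53 (0.92) and Jmjd1c (0.91). Nudt4 (r = 0.92), Hdac3 (0.92) and Slc25a15 (0.91) were most like Stbd1, and Trappc5 (0.93), Acvr2a (0.93) and Nr2c2ap (0.92) most like Ppp1r3c. Gys1 was most like Dcc (r = 0.97), Abcc5 (0.97) and Cxcl17 (0.97). For Gys1, 5% of 12392 genes had an r above 0.80, while that percentile was between 0.56 and 0.65 for the other members. Over these 15 genes Spearman's rho lay between 0.78 and 0.92, and r without the 2 arrays farthest from the member's median between 0.77 and 0.93. None of the 15 passed between genotypes (limma adjusted p = 0.816 or more), and 1, Acvr2a, had an unadjusted p under 0.05.

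Of the other genes of the pathway, given by the brightest probe set of each, 0 passed the test. Of 8 measured genes for glucose entry and the remaining steps of synthesis (11 symbols listed), 0 passed in either direction, 4 were positive and 4 negative, and the median log2 fold change was 0.0065. Hk2, a hexokinase, was at -0.08 ± 0.08, Slc2a1, a glucose transporter, at -0.06 ± 0.06 and Gyg, glycogenin, the protein primer of glycogen, at 0.05 ± 0.08 (SE). Among 11 genes for protein phosphatase 1, its targeting subunits and other regulators of the synthase, 0 passed, 7 were positive and 4 negative, with a median of 0.04. Ppp1r1a, an inhibitor of protein phosphatase 1, was at -0.19 ± 0.08 (limma adjusted p = 0.911), Ppp1ca, a catalytic subunit, at 0.11 ± 0.09 and Epm2a, the glycogen phosphatase laforin, at -0.10 ± 0.09. Ppp1r3a, the targeting subunit typical of muscle, was at 0.09 ± 0.10.

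Glycogen breakdown genes showed 0 calls, with 3 of 9 positive and a median of -0.04. Gaa, the lysosomal glucosidase, was at 0.15 ± 0.08, Phkg1, the catalytic subunit of muscle phosphorylase kinase, at -0.09 ± 0.06 and Pygm, muscle glycogen phosphorylase, at -0.07 ± 0.05. In UDP-sugar metabolism 0 of 8 passed, with 5 positive and a median of 0.05. Uap1 was at -0.09 ± 0.06, Uggt1, which glucosylates glycoproteins in the endoplasmic reticulum, at 0.09 ± 0.09 and Nudt14, a UDP-sugar hydrolase, at 0.07 ± 0.07. The 5 probe sets of Uap1 ran from -0.13 to 0.09. Of 8 autophagy genes linked to Stbd1, 0 passed and 2 were positive, with a median of -0.01: Gaa again, Gabarapl1, which Stbd1 binds, at 0.13 ± 0.12 and Gabarapl2 at -0.06 ± 0.05. The other probe set of Gabarapl1 was at 0.31. Of 4 probe sets of Lamp2, a lysosomal membrane protein, 1 had an unadjusted p under 0.05, and they ran from -0.23 to -0.03, the value of the brightest. At an unadjusted p under 0.05 in limma, 1 of the 43 distinct genes in these 5 lists was lower, Ppp1r1a, and 0 were higher, counting the brightest probe set of each. The shares over all probe sets at that level were 2.43% lower and 2.2% higher.

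**Figure D5:**
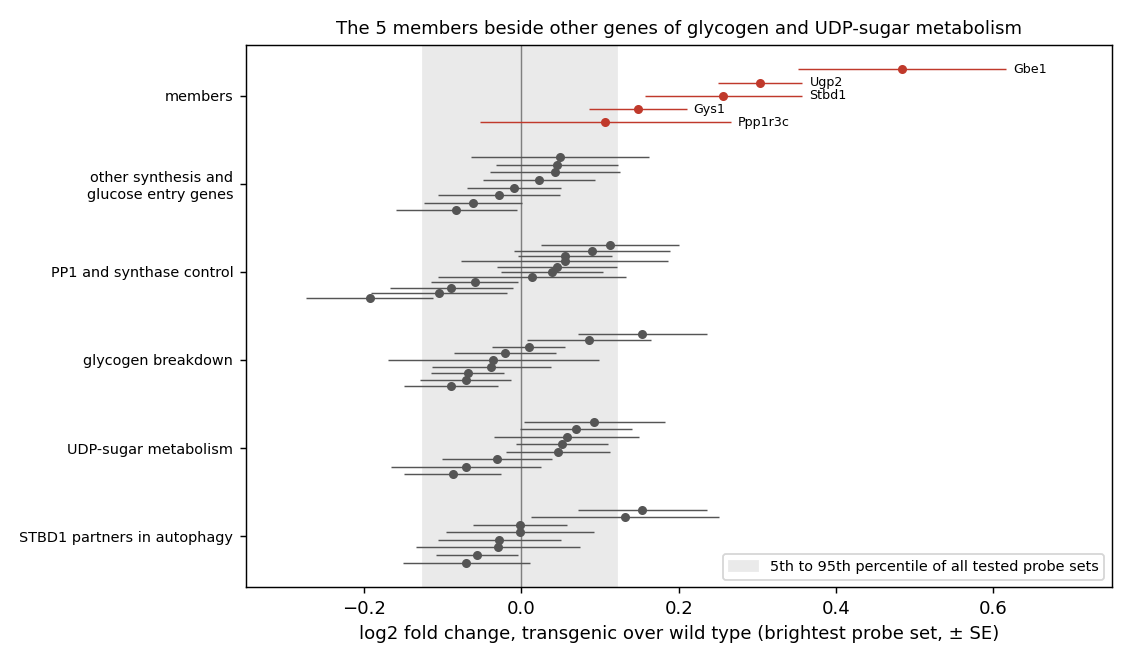
Log2 fold change of transgenic over wild type (± SE) for the brightest probe set of the 5 members, in red, and of the genes in 5 related lists, in grey; shading spans the 5th to 95th percentile of all tested probe sets, -0.12 to 0.12. Of the members, Ppp1r3c alone lies within the shading, and 3 of 43 distinct other genes lie outside it.

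Markers of some other cells had log2 fold changes mostly of 1 sign, and their part in the results above was not tested. Of 8 slow fibre markers 7 were negative (median -0.51; in limma 0 past the threshold and 1 at an unadjusted p under 0.05), with summed intensities of 1834 to 3690 in transgenic and 1818 to 5804 in wild-type mice. All 5 measured adipocyte markers were negative (median -0.52; 0 past the threshold and 3 at an unadjusted p under 0.05), with sums of 2338 to 3135 in transgenic and 2291 to 4330 in wild-type mice. Their median was -0.09 on day 1 and -0.73 on day 2, and the slow fibre median -0.69 on day 1 and -0.28 on day 2. Of 7 endothelial markers 6 were positive (median 0.19; 0 past the threshold and 4 at an unadjusted p under 0.05), with sums of 2056 to 2352 in transgenic and 1782 to 2357 in wild-type mice; the median log2 fold change was 0.22 on day 1 and 0.08 on day 2. The 9 fast fibre markers had a median of 0.0012, with sums of 105022 to 111918 in transgenic and 102503 to 109816 in wild-type mice. Fibroblast markers were negative in 6 of 6 cases (median -0.12) and macrophage markers positive in 5 of 8 (median 0.02), with 0 at an unadjusted p under 0.05 in either list. Over all probe sets, 2.2% were higher and 2.43% lower at that unadjusted level in limma. No marker had an intensity of 0, and which of them are above background is not known from these files.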

How the data were processed

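Total RNA of 12 mice was hybridised to 1 Affymetrix MOE430A array each. The deposited values are linear probe set intensities made with RMA, per the submitters' processing notes. Version, probe definition file and filters are not given in the sources used here. The deposited settings text, per the file headers other than expression data, gave hybridization date and time and chip lot. It names no run: runs were set here by splitting the ordered times at gaps of more than 30 minutes. Intensities were converted to log2. Of 22690 probe sets 64 controls were set aside. Of the 22626 tested, 20380 carried 1 gene symbol, 691 several and 1555 none. Genotypes, taken from the titles, were set against each other in R 4.3.3 by limma 3.58.1 (lmFit, eBayes, no covariate, two-sided, Benjamini-Hochberg over all tested probe sets, threshold 0.05). A gene was represented by its brightest probe set where 1 value was needed.

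The 5 genes, the lists and the rules for naming genes (up to 3 list members by smallest p, 3 most similar genes per member) were chosen with earlier results of these data known. Ppp1r3a was named besides, after its values were seen. Tested on simulated data for this comparison over 22626 probe sets, limma called 31 of 67 true log2 changes of 0.3, 64 of 67 of 0.5 and 66 of 66 of 1. The simulated noise was independent between probe sets, without lot, run or day effects. The simulation gave 164 calls, against 10 higher and 6 lower in the data. Benjamini-Hochberg adjustment is less strict where more probe sets are called, so these counts can overstate recovery in the data. The number of arrays limits the precision: the median SE of a log2 fold change was 0.0689. Mice have separate animal numbers in the settings text. Alternatives were array left out, day or run as block, chip lot, scaling, pseudocount of 16, dim filter, array weights and variance prior. Probe-level data were not used here.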

Additional observations from a re-analysis of the deposited data

Results flagged for a closer look

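Among 22 groups of 6 arrays, 1 for each member probe set and genotype, 4 held an array farther from its group than Dixon's ratio allows at 95%. Chance alone gives about 1 in 20 for independent groups. These groups share arrays, and the 2 flagged Ugp2 probe sets varied together (r = 0.96), so the count cannot be read against that rate. Transgenic replicate 1 was the lowest of its genotype on Ugp2 1434485_a_at, at 11.49 log2 units against 11.78 for the next array. Wild-type replicate 7 was the lowest of its genotype on the same probe set, at 11.14 against 11.46, and on Ugp2 1434486_x_at, at 10.85 against 11.34. These are the 2 arrays of the smaller chip lot, in which the Gapdh control gave more 3′ than 5′ signal (0.185 and 0.184 log2 units). Wild-type replicate 10 was the highest of its genotype on Gys1 1450196_s_at, at 8.81 log2 units, with the next array at 8.596.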

How the results depend on the processing

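All 11 member probe sets kept a positive log2 fold change under every alternative tried, except both of Ppp1r3c without wild-type replicate 7. Counts of calls moved more. On leaving out 1 array, 4 to 12 probe sets of the whole table passed as higher and 1 to 6 as lower. Of the member probe sets 0 to 3 passed, with 0 without transgenic replicate 2, 3, 4 or 5 or wild-type replicate 8, 9, 10 or 11. The brightest probe set of Ugp2 stayed between 0.29 and 0.34 and passed without transgenic replicate 1 alone (limma adjusted p = 0.0224). That of Ppp1r3c ran from -0.03 to 0.21, and was at -0.0294 without wild-type replicate 7; the cause was not tested. With run as a block 4 passed as higher and 2 as lower over all, with 0 members, and with day as a block 11 passed as lower. Members past the threshold numbered 5 without the smaller chip lot and 1 with arrays shifted to 1 median, where 0.0398% of all probe sets passed as higher. Array weights gave 16 higher and 25 lower. The brightest Ugp2 probe set also passed with day as a block (0.30), without the smaller lot (0.33), with a pseudocount of 16 (0.30), with dim probe sets removed (0.30), with array weights (0.32) and with an intensity trend and robust prior (0.30), at limma adjusted p-values from 0.00598 to 0.0386. Gbe1 has no value with dim probe sets removed. With all probe sets of a gene averaged, and within each day, no member changed direction. The interaction with day called 0 members under both alternatives (0 of all probe sets in limma as reported, 688 at an unadjusted p under 0.05). The fits assume that arrays vary alike in both genotypes. Without detection calls, signal over background is not known, which limits Gbe1 most. No paired analysis was possible because the genotypes share no replicate number.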
